A study of Homo sapiens with 8 samples.

Results

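Long intergenic non-coding RNA genes that carry a LINC symbol made up 118 of the 19118 genes in the table of normalised counts from HEK293T cells treated with 3-deazaneplanocin A (DZNep) or vehicle. They were chosen by their symbol, LINC followed by digits, and selected on their level, a mean of at least 50 normalised counts over the 8 libraries. The table held 293 LINC genes in all, and 2225 were listed in the table of raw counts. The choice used the mean level over both groups and not the difference between them, but a gene can reach a mean of 50 through 1 group alone. This was so for 28 of the 118 genes, in which 1 of the group means was under 50.

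HEK293T is an established line derived from human embryonic kidney. DZNep is an adenosine analog that inhibits S-adenosylhomocysteine hydrolase, and the S-adenosylhomocysteine that then builds up inhibits methyltransferases. RNAseq was performed on 4 libraries of cells given 100 µM DZNep for 48 h and 4 libraries of cells given vehicle for the same time (Control). The labels number the replicates 1 to 4 in each group and the study calls them biological replicates, but neither says that they were separate cultures, so the p-values measure the spread between these libraries. The growth medium is DMEM in the labels and RPMI in the study's methods.

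Long non-coding RNAs are transcribed by RNA polymerase II and are usually capped, spliced and polyadenylated like mRNAs, but they are not translated into a known protein. The LINC symbols are given to those that lie between protein-coding genes and have no better name, so the series groups genes by position and not by function. Many are kept at low levels, are enriched in the nucleus and are turned over there by the RNA exosome.

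The 118 genes had 117 symbols, since LINC01605 stands under 2 identifiers. In GENCODE release 44 of GRCh38, 110 are lncRNAs and 8 are transcribed pseudogenes, and they lie on 23 chromosomes. Although the symbols mean intergenic, 17 of the 118 genes overlapped a protein-coding gene and 63 overlapped some annotated gene on the other strand. The strand setting of the counting is not given in the sources used here, so reads of such a gene and its antisense partner cannot be told apart. Mean levels ran from 50.4 to 1641 normalised counts with a median of 143. The lowest 3 means inside the choice were those of LINC00471 (50.4), LINC02983 (51.9) and LINC01625 (53.8), and the highest 3 outside it were those of LINC02550 (49.8), LINC01002 (49.7) and LINC00957 (49.6).

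Promoters are shown for 6 genes. LINC00652 and LINC01976 are among the 10 LINC genes with the highest fold changes and LINC01535 and LINC03011 among the 10 with the lowest, while LINC02987 and LINC00662 start close together and only the latter was called. Each sequence is from RefSeq on GRCh38.p14, runs 5′ to 3′ on the gene's strand from 250 bases before to 50 bases after the RefSeq start, and covers chr20:18794535-18794834 (minus strand), chr17:43938011-43938310 (plus), chr19:37251635-37251934 (plus), chr7:66493382-66493681 (plus), chr19:27793181-27793480 (plus) and chr19:27793891-27794190 (minus) in the order of the lines. Capitals mark matches on either strand to 6 motifs: TATAAA, found near some start sites, the CCAAT box, the GC box written GGGCGG, the E-box written CACGTG, TGACGTCA (cyclic AMP response element) or CCGGAAG (ETS motif).
LINC00652: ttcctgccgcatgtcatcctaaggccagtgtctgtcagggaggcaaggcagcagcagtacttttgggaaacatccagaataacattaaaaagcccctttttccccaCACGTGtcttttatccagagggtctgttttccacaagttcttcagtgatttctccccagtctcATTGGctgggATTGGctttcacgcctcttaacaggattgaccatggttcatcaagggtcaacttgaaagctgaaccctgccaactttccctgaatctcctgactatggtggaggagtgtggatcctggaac
LINC01976: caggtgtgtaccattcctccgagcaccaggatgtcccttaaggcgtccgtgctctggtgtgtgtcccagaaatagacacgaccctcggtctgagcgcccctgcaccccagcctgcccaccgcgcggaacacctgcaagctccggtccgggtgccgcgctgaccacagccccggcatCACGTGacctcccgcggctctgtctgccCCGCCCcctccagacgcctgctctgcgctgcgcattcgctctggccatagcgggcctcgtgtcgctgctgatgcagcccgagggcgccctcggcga
LINC01535: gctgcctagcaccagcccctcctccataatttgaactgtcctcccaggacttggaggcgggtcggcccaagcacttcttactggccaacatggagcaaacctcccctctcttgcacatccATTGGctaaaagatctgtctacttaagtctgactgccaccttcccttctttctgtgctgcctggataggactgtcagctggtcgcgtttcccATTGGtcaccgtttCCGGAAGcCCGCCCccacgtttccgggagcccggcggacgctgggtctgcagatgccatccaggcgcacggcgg
LINC03011: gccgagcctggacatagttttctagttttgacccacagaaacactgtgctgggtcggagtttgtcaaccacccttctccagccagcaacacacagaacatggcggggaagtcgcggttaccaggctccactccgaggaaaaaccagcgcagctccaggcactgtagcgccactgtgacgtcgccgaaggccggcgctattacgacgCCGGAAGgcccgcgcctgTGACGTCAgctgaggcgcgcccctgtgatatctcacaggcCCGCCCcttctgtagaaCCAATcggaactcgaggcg
LINC02987: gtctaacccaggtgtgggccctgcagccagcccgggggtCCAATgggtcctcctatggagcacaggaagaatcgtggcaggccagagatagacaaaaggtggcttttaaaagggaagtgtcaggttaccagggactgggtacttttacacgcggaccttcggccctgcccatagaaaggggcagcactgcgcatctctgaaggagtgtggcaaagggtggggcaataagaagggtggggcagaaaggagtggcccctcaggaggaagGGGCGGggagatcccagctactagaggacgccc
LINC00662: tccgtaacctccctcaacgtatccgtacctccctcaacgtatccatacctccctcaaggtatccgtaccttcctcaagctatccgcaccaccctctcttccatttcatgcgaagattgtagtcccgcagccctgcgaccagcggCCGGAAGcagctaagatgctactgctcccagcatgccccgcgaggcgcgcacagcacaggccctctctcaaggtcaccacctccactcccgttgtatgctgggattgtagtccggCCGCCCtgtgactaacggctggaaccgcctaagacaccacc

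A RefSeq promoter was matched for 76 of the 118 genes. The RefSeq start lay within 100 bases of the GENCODE start for 46 of the 76, and was 48719 bases from it for LINC00869. CCAAT was found in 51.3% of the 76 and in 34.6% of all 35097 promoters of the same length, and GGGCGG in 59.2% and 44.9%. TATAAA stood in 15.8% of the LINC promoters and 11.5% of all, CACGTG in 11.8% and 7.25%, CCGGAAG in 18.4% and 10.3%, and TGACGTCA in 5.26% and 1.85%. CCAAT was present in 5 of 11 matched genes that were higher with DZNep, 9 of 22 that were lower and 25 of 43 that were not called. A CpG ratio, observed over expected, above 0.6 was found in 56.6% of the LINC promoters against 48.8% of all. Such matches describe letters in a window and not binding. The 35097 promoters were not chosen by the level of their genes as the 76 were, so these differences cannot be read as a trait of LINC genes.

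Total counts per library ranged from 25043058 to 44902779, and mitochondrial genes took 3.02 to 13.7% of them. Of 11 HEK293T markers 10 were tested, of which KRT8 was higher and LHX1 lower with DZNep, and PAX8 was near 0, at 0 to 2.15 normalised counts in Control and 2.59 to 6.44 in DZNep. The list summed to 31960 to 55977 in Control and 41060 to 51135 in DZNep, most of it from VIM (18481 to 35819 and 23594 to 30854). Of 8 fibroblast and endothelial markers LUM, CDH5 and VWF were higher and 0 were lower, beside 10.6% and 13.5% of all genes tested. VWF was at 1.79 to 4.62 in Control and 73.1 to 117.9 in DZNep, and CDH5 at 0 to 3.08 and 11.8 to 19.1. The sums of the list overlapped (3578 to 7122 in Control and 3016 to 7345 in DZNep). Most of each sum came from COL1A1 (2248 to 4386 and 2365 to 4682), so the sums do not show these 3 genes. None of 5 hematopoietic markers tested was called by edgeR or DESeq2. At an unadjusted p under 0.05 in edgeR 1 was higher, LYZ, in which DZNep replicate 2 was far above the other 7 libraries. HBB was at 0 in every library, and CD3E was at 0 in every Control library and at 8.16 to 40.5 in DZNep. Hepatocyte markers summed to 6.17 to 20.4 in Control and 23.3 to 48.4 in DZNep. DZNep replicate 2 stood apart from the other libraries in LYZ, at 450.2 normalised counts against 18.3 to 30.8 in the other 7, and in COL1A2, at 15.3 against 898 to 2167. The part of these differences in the results was not tested.

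The first comparison asked which LINC genes differed between DZNep and Control. A gene was called where its adjusted p was under 0.05 and its log2 fold change was over 1 in either direction (edgeR quasi-likelihood test, Benjamini-Hochberg over the 19171 genes tested). By this rule 17 of the 118 were higher, 33 were lower and 68 were not called. Among all genes tested 10.6% were higher and 13.5% lower. In bulk libraries a change in the RNA per cell and a change in the share of cells that hold it cannot be told apart. The LINC shares were 14.4% and 28%, close to the 12.8% and 27.6% of the 892 other lncRNA genes with a mean of at least 50, while 6.68% and 11.5% of the protein-coding genes at that level were higher and lower. Because a gene can enter through its higher group, these shares describe the set and are no test of it: 9 of the 17 higher genes had a Control mean under 50, and 11 of the 33 lower genes had a DZNep mean under 50.

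The median log2 fold change of the 118 was -0.13, against -0.03 over all genes tested and -0.37 over the other lncRNAs. Changes ran in both directions, from -3.61 to 3.79, with a median absolute value of 0.76 against 0.54 over all genes. The groups did not overlap for 26 genes in the higher and 33 in the lower direction, beside 19.5% and 19.4% of all genes tested. Of those called, 16 of the 17 higher and 29 of the 33 lower genes had no overlap. The change was more than 4-fold in 8 of the 17, LINC02986 with its overlapping groups among them, and in 9 of the 33. Every called gene moved in its direction in all 4 pairs of same-numbered libraries. The calls were made on these same libraries, so neither this nor the lack of overlap is separate support for them. The summed level of the 118 genes was 28309 to 35179 normalised counts in Control and 28447 to 29195 in DZNep, so the sums overlapped although 50 genes changed.

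**Figure D1:**
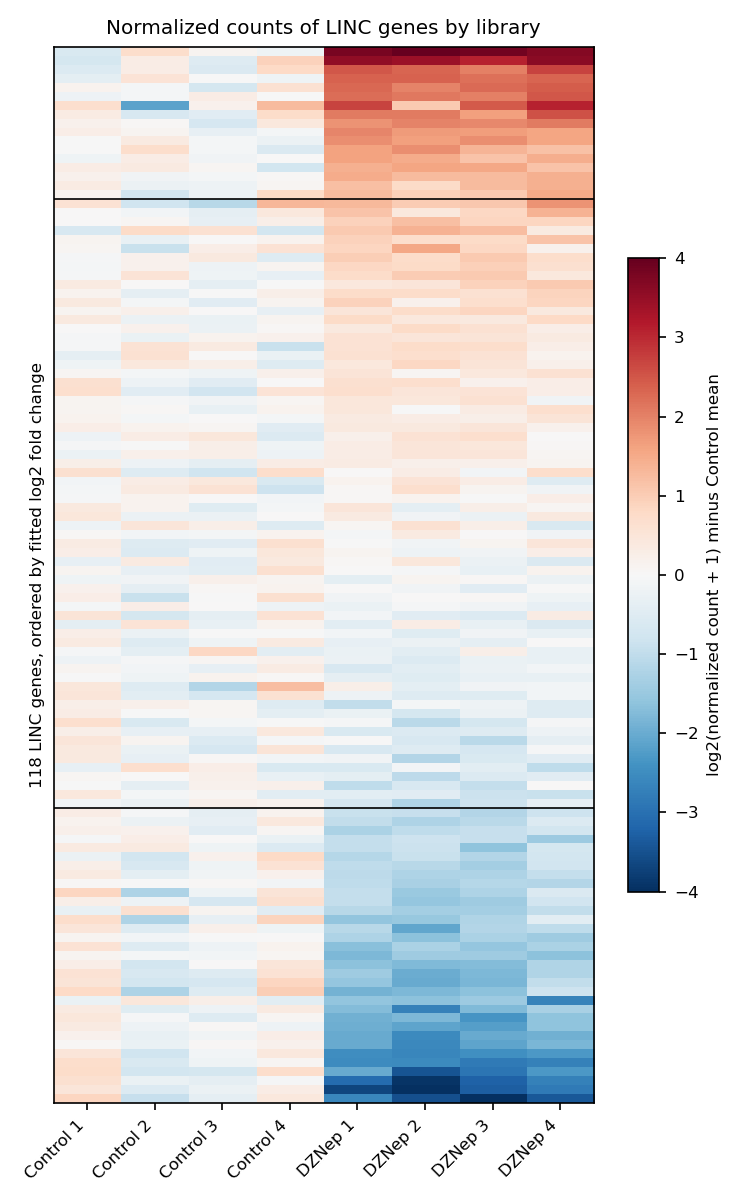
Normalised counts of the 118 LINC genes in the 8 libraries, as log2(normalised count + 1) minus the mean of the 4 Control libraries. Genes are rows ordered by fitted log2 fold change, and the black lines set apart the 17 highest and the 33 lowest genes, which were those called.

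**Figure D2:**
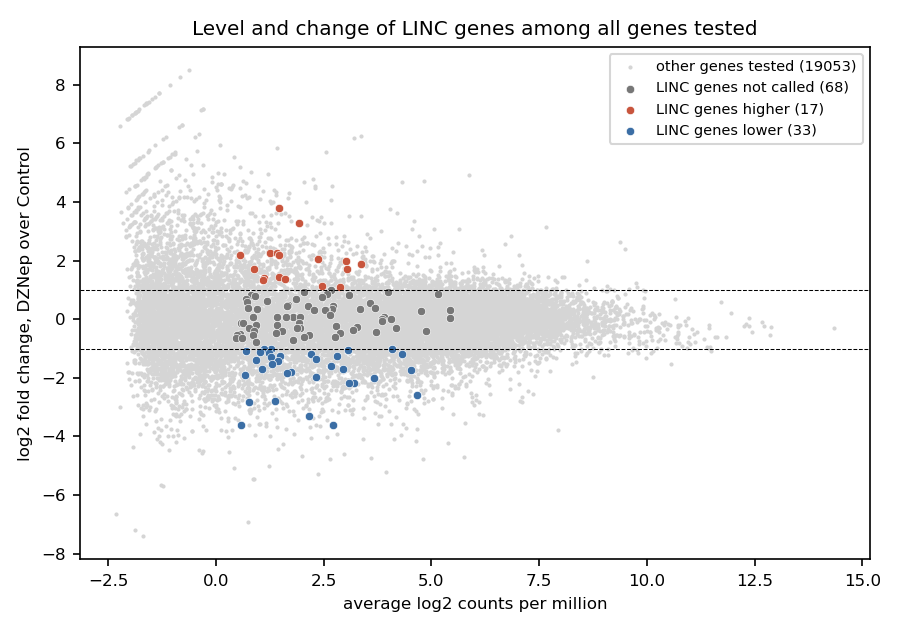
Log2 fold change of DZNep over Control against the average log2 CPM (counts scaled to library size) for all genes tested (grey), with the 118 LINC genes coloured by call. The LINC genes spread from -3.61 to 3.79, and dashed lines mark a log2 fold change of 1 in either direction.

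LINC00652 had the highest fold change of the set. It lies on chromosome 20 (18786065 to 18794579, minus strand) in 4 exons, and its promoter above holds an E-box and 2 CCAAT matches and has a CpG ratio of 0.17. Its levels were 7.71, 20.5, 13.4 and 10.7 normalised counts in Control replicates 1 to 4 and 184, 217, 194 and 171 in DZNep replicates 1 to 4. All DZNep libraries were above every Control library, with a log2 fold change of 3.79 ± 0.29 (SE, n = 4 per group, edgeR adjusted p = 1.41e-05). Its nearest protein-coding gene, SCP2D1, was not among the genes tested.

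LINC00115, on chromosome 1 (824228 to 827539, minus strand), came second. The 4 Control libraries gave 13.9, 28.6, 16.1 and 45.1 normalised counts and the DZNep libraries 280.2, 257, 205 and 298. These did not overlap, although the Control libraries differed among themselves by more than 3-fold (log2 fold change 3.28 ± 0.35, edgeR adjusted p = 8.18e-05).

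LINC01976 is a short gene of 2 exons on chromosome 17 (43938257 to 43938963, plus strand) and had the highest mean level per kb of exon over all 8 libraries of the lncRNA-type genes, at 560.2 normalised counts per kb. Its level per kb was 221 in Control, where LINC02381 was higher at 332, and 900 in DZNep. It stood at 140.3, 71.4, 81.5 and 187 in Control and 474, 476, 352 and 656 in DZNep. Replicate 4 was the highest of both groups, and the lowest DZNep library was still above the highest Control library (log2 fold change 2.00 ± 0.32, edgeR adjusted p = 0.000827).

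LINC01089 starts 525 bases from SETD1B, which encodes a subunit of a histone H3 lysine 4 methyltransferase complex, and is transcribed away from it. It also overlaps RHOF on its own strand, so reads in the overlap are uncertain. Control libraries held 179, 164, 99.4 and 211 normalised counts and DZNep libraries 552, 622, 603 and 668. The groups were far apart, with a log2 fold change of 1.88 ± 0.22 (edgeR adjusted p = 0.000145). SETD1B moved the same way, with a log2 fold change of 0.65 ± 0.15 (edgeR adjusted p = 0.00618). It missed only the fold change threshold and so was not called.

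LINC01234, an RNA described in several tumour types, rose from 139, 179, 133 and 119 in Control to 512, 445, 509 and 425 in DZNep. Its libraries were tight in both groups (log2 fold change 1.70 ± 0.18, edgeR adjusted p = 7.06e-05). LINC02982 on chromosome 5 showed 24.7, 48.2, 32.2 and 29.0 in Control and 171, 169, 154 and 168 in DZNep, again with no overlap (2.25 ± 0.24 on the log2 scale, edgeR adjusted p = 8.16e-05).

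The other genes among the 10 highest were LINC01311, LINC01625, LINC01602 and LINC01140, with log2 fold changes of 2.27, 2.21, 2.20 and 1.73. Their Control means were 29.7, 18.9, 36.0 and 30.8 normalised counts and their DZNep means 147, 88.7, 169.8 and 103. All 4 had Control means under 50 and entered the set through their DZNep libraries. LINC02986 also passed the test, but its groups overlapped: it was at 87.9, 11.6, 60.9 and 133 in Control and 362, 114, 301 and 470.2 in DZNep. Replicate 2 was the lowest library of both groups, and without Control replicate 3 the call was lost (log2 fold change 1.98 ± 0.70, edgeR adjusted p = 0.0521). The remaining 6 higher genes, LINC03015, LINC01144, LINC00857, LINC02361, LINC01605 (under 1 of its 2 identifiers) and LINC00997, had log2 fold changes of 1.09 to 1.44. LINC00997 lost its call without Control replicate 2 (0.89) or DZNep replicate 4 (0.99).

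Among the genes that fell, LINC03011 and LINC00467 had the lowest fold changes. LINC03011 lies on chromosome 7 (66493607 to 66495758, plus strand) in 2 exons, and its promoter above has a CpG ratio of 0.91, with a cyclic AMP response element and an ETS match. It had 168, 48.2, 72.6 and 126 normalised counts in Control and 14.5, 7.25, 4.32 and 7.87 in DZNep. Even the lowest Control library was more than 3 times the highest DZNep library, and the log2 fold change was -3.61 ± 0.49 (edgeR adjusted p = 0.00032).

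LINC00467 spans chromosome 1 from 211382736 to 211435570 on the plus strand in 6 exons. Control libraries gave 606, 301, 370.0 and 543 normalised counts and DZNep libraries 33.6, 16.9, 43.2 and 60.7. Its mean thus went from 455 ± 143 to 38.6 ± 18.3 (SD, n = 4), a log2 fold change of -3.60 ± 0.38 (edgeR adjusted p = 7.97e-05). The nearest protein-coding gene by start site, TRAF5, a signalling adaptor of TNF receptors, had a log2 fold change of 0.57 ± 0.16 (edgeR adjusted p = 0.0148). It missed only the fold change threshold and so was not called.

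LINC01535 sits in a cluster of zinc finger genes on chromosome 19 (37251867 to 37265547, plus strand). It was at 462, 244, 230.2 and 287 in Control and 33.6, 18.5, 30.2 and 43.9 in DZNep, with Control replicate 1 well above the other Control libraries and no overlap (-3.31 ± 0.32 on the log2 scale, edgeR adjusted p = 5.59e-05). ZNF383, whose start is 33653 bases away, had a log2 fold change of 0.13 ± 0.16 and was not called.

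LINC00963 lies on chromosome 9 (129476946 to 129513687, plus strand) and fell by more than 4-fold. Its Control libraries ranged widely, at 2135, 871, 1410.0 and 2048 normalised counts, while the DZNep libraries were close together at 272, 251, 276 and 309. The log2 fold change was -2.57 ± 0.27 (edgeR adjusted p = 7.66e-05).

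LINC00339, a lncRNA of the CDC42 locus on chromosome 1, went from 960.4, 649, 772 and 647 in Control to 192, 171, 159.8 and 243 in DZNep. It overlaps a protein-coding gene model on the same strand, ENSG00000289694, so its reads are uncertain (-2.01 ± 0.20 on the log2 scale, edgeR adjusted p = 5.58e-05). LINC00638, a single-exon gene on chromosome 14, had 259, 104, 139.7 and 169.7 in Control and 27.2, 26.6, 21.6 and 23.6 in DZNep. Its DZNep libraries differed little from each other and lay far below Control (-2.78 ± 0.31, edgeR adjusted p = 9.84e-05).

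LINC01515 and LINC02609 are long genes with exons totalling 19753 and 14454 bases. LINC01515 was at 529, 428, 531 and 581 in Control and 125, 84.6, 117 and 145 in DZNep, and LINC02609 at 621, 452, 508 and 674 and 137, 94.2, 138 and 145. In both, DZNep replicate 2 was the lowest library, and both had a log2 fold change of -2.16 (SE 0.20 for both, edgeR adjusted p = 4.09e-05 and 4.56e-05). LINC01816 and LINC02985 completed the 10 lowest, with log2 fold changes of -2.84 ± 0.48 and -1.97 ± 0.25.

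The other 23 lower genes had log2 fold changes of -1.91 to just past -1. They included LINC00649 and LINC00910, whose libraries agreed closely within each group, and LINC03057, at 1691, 709, 744 and 2143 in Control and 404, 293, 333 and 588 in DZNep. LINC00910 stood at 156, 136, 142 and 147 in Control and 61.7, 45.9, 59.6 and 54.0 in DZNep (-1.42 ± 0.19 on the log2 scale, edgeR adjusted p = 0.000308). In LINC00342, LINC00174, LINC02604 and LINC01355 the groups overlapped. Leaving out 1 library at a time, 23 of the 33 lower genes kept their call in all 8 fits. LINC02604 lost it without Control replicate 1 or 4 or DZNep replicate 1, 2 or 3 (adjusted p = 0.0568 to 0.0871), and LINC01355 without Control replicate 4 (log2 fold change -0.80) or DZNep replicate 1 or 3 (adjusted p = 0.0624 and 0.0585).

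**Figure D3:**
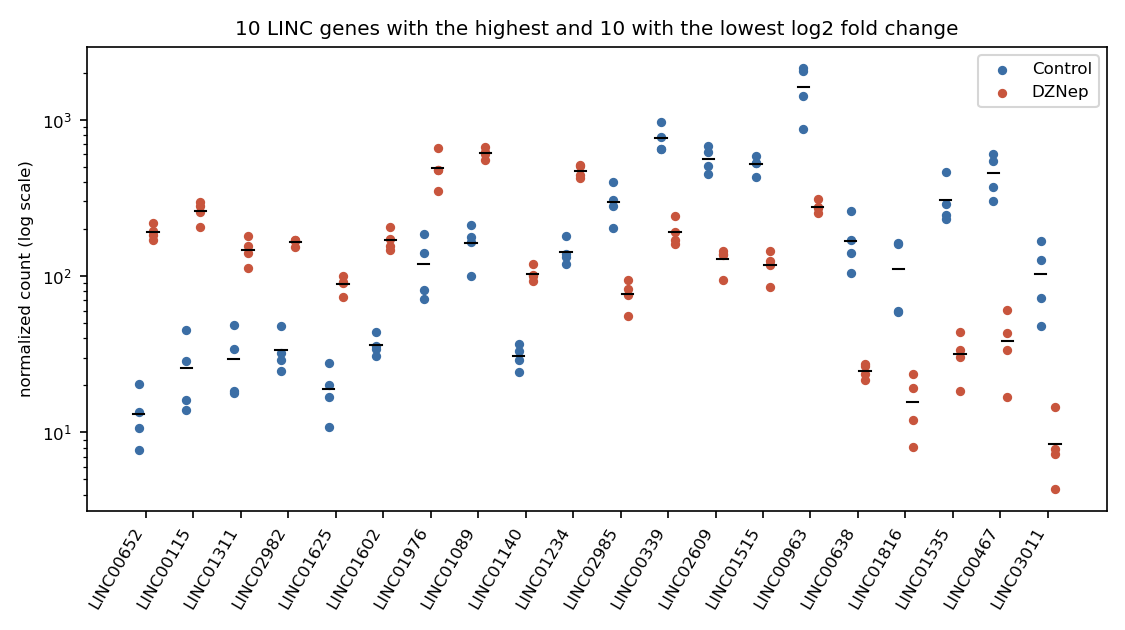
Normalised counts, on a log scale, of the 10 LINC genes with the highest and the 10 with the lowest log2 fold change among called genes with no overlap between groups. Points are libraries (4 Control, 4 DZNep) and black bars are group means, and in each gene all points of 1 colour lie on 1 side of the other colour.

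At an adjusted p under 0.05 alone, 25 of the 118 were higher and 36 lower, beside 19.1% and 21.8% of all genes tested. Of the 68 genes not called, 11 had an adjusted p under 0.05 with a smaller fold change and 24 had an absolute log2 fold change under 0.3. LINC02381 was at 1591, 1364, 1458 and 1357 in Control and 1843, 1765, 1707 and 2039.6 in DZNep. Its groups did not overlap, but its log2 fold change was 0.32 ± 0.13 (edgeR adjusted p = 0.0676). The 5 smallest changes were those of LINC00623, LINC01128, LINC02693, LINC00869 and LINC00665, from -0.06 to 0.06, with SEs of 0.15 to 0.28. LINC00461, the host gene of the microRNA gene MIR9-2, was at 81.7, 68.7, 59.1 and 94.5 in Control and 48.1, 55.6, 63.0 and 69.7 in DZNep. These overlapped (-0.39 ± 0.24 on the log2 scale, edgeR adjusted p = 0.218).

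None of the 8 transcribed pseudogenes was called by edgeR or DESeq2, while an unadjusted p under 0.05 was found for 1 that was higher and 1 that was lower, beside 17 higher and 33 lower of the 110 lncRNA-type genes. The 5 highest levels per kb of exon in the set were all pseudogenes, LINC00680, LINC01145, LINC00888, LINC00674 and LINC00869, at 625 to 2479 normalised counts per kb over the 8 libraries. Their annotated exons are short, from 143 to 870 bases, and the annotation used for counting is not given in the sources used here, so these levels per kb are uncertain. Reads of such genes may also be shared with their parent genes. Of 18 genes with a single exon in their canonical transcript 5 were higher and 3 lower, and of the 100 others 12 were higher and 30 lower; that difference was not tested.

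Some genes varied widely within a group. The highest Control library exceeded the lowest by more than 3-fold in 9 genes and the DZNep libraries did so in 3. Control replicates 1 and 4 were both above replicates 2 and 3 in 58 of the 118 genes (49.2%, against 35.6% of all genes tested). By call these were 23 of the 33 lower, 7 of the 17 higher and 28 of the 68 others. Control replicates 1 and 4 were both below replicates 2 and 3 in 19 of the 118 (16.1%, against 35.2% of all genes tested). The same 2 libraries had 7.76 and 13.7% mitochondrial counts, against 3.02 and 3.16% in Control replicates 2 and 3. In DZNep, replicates 1 and 4 had 7.04 and 10.1% against 4.25 and 4.44%. Their part in the result was not tested. Within pairs of same-numbered libraries the median log2 ratio of the 33 lower genes was -1.93, -1.36, -1.36 and -1.55 for replicates 1 to 4, and that of the 17 higher genes 1.82, 1.81, 2.05 and 1.82.

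A fit that paired the libraries by replicate number (the block) called 18 LINC genes higher and 31 lower, beside 11.7% and 14.3% of all genes tested. LINC00632, the locus that gives rise to the circular RNA CDR1as, was called only with the block. It was at 188, 72.3, 57.3 and 319 in Control and 314, 258, 266 and 442 in DZNep, where replicates 1 and 4 were the highest libraries of both groups. Without the block its log2 fold change was 0.98 ± 0.48 (edgeR adjusted p = 0.129) and with it 1.24 (adjusted p = 0.000512). LINC01116 and LINC01572 lost their calls with the block, because their log2 fold changes moved from -1.004 and -1.012 to -0.992 and -0.998. LINC01116 also lost its call without Control replicate 1 or 4 or DZNep replicate 3 (log2 fold change -0.92 to -0.97), LINC01572 without Control replicate 1 or 4 or DZNep replicate 1, 2 or 3 (-0.85 to -0.99), and LINC00632 gained one without Control replicate 4 (1.59).

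The next comparison took LINC genes that start near each other. Start sites of 3 pairs of LINC genes lay within 5 kb, and 2 further pairs overlapped in their gene bodies. For each of the 5 pairs the log2 ratio of the 2 genes was computed per library. In 3 pairs 1 gene had a group mean under 50 and so had entered the set through its other group, and their ratios are given as a description with no test. The other 2 pairs were compared between groups by a two-sided exact permutation test, whose smallest possible p with 4 against 4 libraries is 0.0286.

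LINC00115 and LINC01128 start 59 bases apart on opposite strands of chromosome 1. LINC01128 was at 639.8, 573, 581 and 677 in Control and 583, 793, 626 and 557 in DZNep. The log2 ratio of LINC00115 to LINC01128 was -4.67 ± 0.71 (SD, n = 4) in Control and -1.30 ± 0.37 in DZNep, and LINC00115 had entered the set through its DZNep libraries. The groups of LINC00115 did not overlap, whereas those of LINC01128 did.

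LINC02987 and LINC00662 start 215 bases apart in GENCODE on opposite strands of chromosome 19, and their gene bodies overlap. LINC02987 was at 257, 188, 170.2 and 269 in Control and 270.3, 250.5, 249 and 235 in DZNep, and LINC00662 at 617, 263, 288 and 611 and 154, 104, 117 and 178. Only LINC00662 was called, and the log2 ratio of LINC02987 to LINC00662 went from -0.92 ± 0.37 to 0.89 ± 0.38 (SD, n = 4). The ratio was higher with DZNep in all 4 same-numbered pairs of libraries, by 1.59 to 2.06, and the exact permutation p was 0.0286, the smallest possible, or 0.0571 adjusted over the 2 pairs of genes tested, which misses 0.05. Of the promoters above, that of LINC00662 has the higher CpG ratio, 0.85 against 0.32.

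LINC00174 and LINC03011 start 2043 bases apart on chromosome 7, on opposite strands, and both were lower. LINC00174 was at 372, 97.3, 182 and 422 in Control and 77.1, 78.9, 99.3 and 172 in DZNep, with overlap between the groups, and the gene overlaps TPST1 on the other strand. Its call held in 3 of 8 fits that left out 1 library, and its adjusted p without Control replicate 1 or 4 or DZNep replicate 1, 2 or 3 was 0.0818 to 0.098. The log2 ratio of LINC00174 to LINC03011 was 1.30 ± 0.32 in Control and 3.53 ± 0.93 in DZNep (SD, n = 4), and LINC03011 had entered the set through its Control libraries.

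For the 2 identifiers of LINC01605 the difference in log2 ratio was 0.84, with an exact permutation p of 0.0571 that was also 0.0571 after adjustment. Within same-numbered libraries it was 0.48 to 1.24, above 0 in 4 of 4 pairs, but a test that ignores the pairing did not pass. The difference was 1.05 for LINC01967 and LINC01980, and it was above 0 in 3 of 4 pairs.

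**Figure D4:**
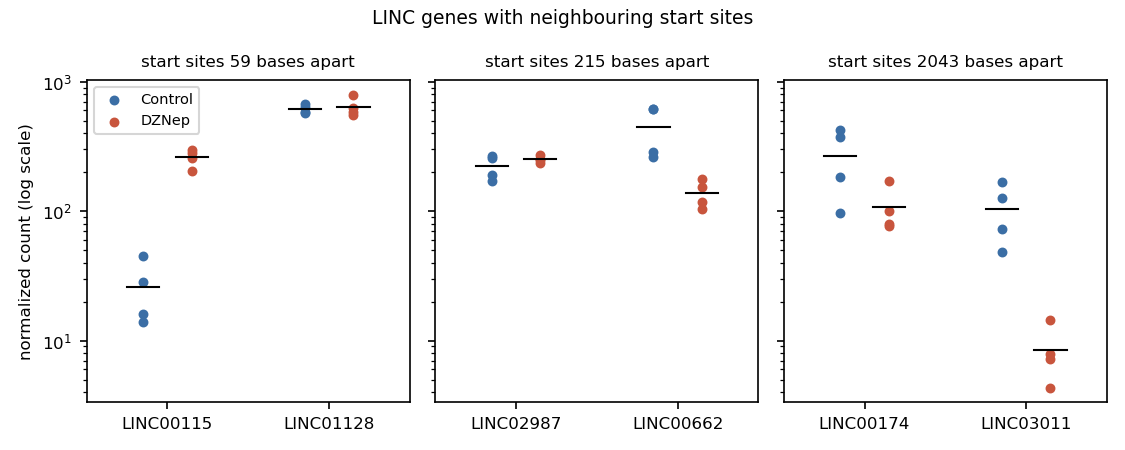
Normalised counts, on a log scale, of 3 pairs of LINC genes whose start sites lie 59, 215 and 2043 bases apart. Points are the 4 Control and 4 DZNep libraries and bars are group means, and in each pair the distance between the 2 genes differs between the groups.

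The protein-coding neighbours were then examined, with the neighbour defined as the protein-coding gene whose start site is nearest. It was tested for 92 of the 118 LINC genes and was 1 of 86 genes. Of the 86, 14 were higher (16.3%) and 9 lower (10.5%), beside 10.6% and 13.5% of all genes tested, and their median log2 fold change was 0.18. Of the 24 lower LINC genes with a tested neighbour, 5 had a higher neighbour, 0 had a lower one by edgeR and 19 had one that was not called. These 24 share 23 neighbours. Before adjustment, 9 of the 23 rose and 5 fell with a p under 0.05. DESeq2 called 4 of them higher and 1 lower. Of the 14 higher LINC genes, 4 had a higher neighbour, 2 a lower one and 8 one that was not called.

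Both genes were called in 11 pairs, in the same direction in 4 and in opposite directions in 7. Start sites lay within 50 kb in 3 of the 11, of which 0 had the same direction. They lay over 50 kb apart in 8, of which 4 had the same direction. LINC01625 was higher together with CITED2, a transcriptional coregulator that binds CBP and p300, whose start is 99951 bases away (log2 fold change 3.13 ± 0.29, edgeR adjusted p = 3.77e-05). LINC01234 was higher with RBM19, a ribosome biogenesis factor (log2 fold change 1.07 ± 0.23), LINC01140 with the gene model ENSG00000267561, which it overlaps on the same strand (1.33 ± 0.40), and LINC01605 with ZNF703, a transcriptional repressor (1.09 ± 0.27).

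The opposite pairs included the one furthest apart in fold change. NKD2, an inhibitor of Wnt signalling that binds Dishevelled, starts 11494 bases from LINC02982 and fell by 4.09 on the log2 scale (SE 0.30, edgeR adjusted p = 1.29e-05), while LINC02982 rose. FAM20C, a secretory pathway kinase, was lower (log2 fold change -2.66 ± 0.19) beside the higher LINC03015. Among the nearest coding genes of lower LINC genes, at whatever distance, KCND2, a potassium channel, had a log2 fold change of 1.55 ± 0.36 (LINC02476). GAS1, a Hedgehog co-receptor, had one of 1.05 ± 0.16 (LINC02893), and KCTD7 one of 1.16 ± 0.31 (both LINC00174 and LINC03011). These 3 genes were called higher. LINC02476 itself lost its call without Control replicate 4 (log2 fold change -0.93).

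By sign alone, within 50 kb 19 of 38 pairs had the same sign and beyond it 29 of 54. In the 5 pairs whose genes start within 1 kb and run apart, 4 had the same sign and 0 had both genes called by edgeR. Of these 5 coding neighbours, 1 had a higher level and 3 a lower one when the p was not adjusted, and 0 were called by DESeq2. LINC01547 was lower (-1.06 ± 0.19, edgeR adjusted p = 0.00135) and started 92 bases from SLX9, whose log2 fold change was -0.45 and which was not called. Without Control replicate 2 or DZNep replicate 4 the value of LINC01547 was -0.97 or -0.94, and its call was lost.

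**Figure D5:**
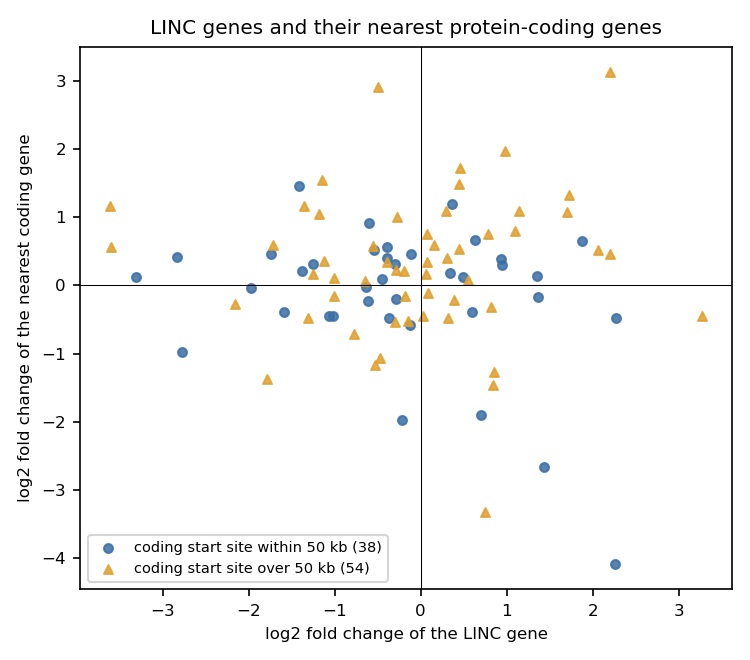
Log2 fold change of the nearest protein-coding gene against that of the LINC gene for the 92 pairs tested, split by a start site distance of 50 kb (38 pairs within, 54 beyond). The points fill all 4 quadrants, with NKD2 at the bottom right at -4.09 and CITED2 at the top right at 3.13.

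Named lncRNAs outside the LINC series were taken from a list of 45, of which 40 were tested. Of these 2 were higher and 12 lower, beside 10.6% and 13.5% of all genes tested, with a median log2 fold change of -0.75 against -0.03 over all. For the 892 lncRNA genes outside the set with a mean of at least 50, the shares were 12.8% and 27.6% and the median was -0.37. The lower ones held the hosts of small nucleolar RNAs GAS5, SNHG1, SNHG5, SNHG7 and ZFAS1, the microRNA cluster host MIR17HG, and JPX, EPB41L4A-AS1, NKILA, CASC2, PURPL and FENDRR. PURPL, which is induced by p53, was at 860.2, 721, 606 and 869 in Control and 219, 206, 239 and 264 in DZNep (-1.75 ± 0.17 on the log2 scale, edgeR adjusted p = 5.26e-05). NKILA, an inhibitor of NF-κB signalling, was at 128, 122, 104 and 114 in Control and 17.2, 8.86, 20.7 and 7.87 in DZNep (-3.10 ± 0.33, edgeR adjusted p = 7.98e-05). In neither did the groups overlap.

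H19, an imprinted lncRNA, and TERC, the RNA of telomerase, were the 2 that rose. H19 was at 47.8, 10.7, 18.8 and 46.2 in Control and 161, 128, 173 and 253 in DZNep (2.54 ± 0.44 on the log2 scale, edgeR adjusted p = 0.00134). TERC was low in Control, at 1.54, 2.68, 2.69 and 5.37, and at 32.6, 57.2, 36.3 and 12.4 in DZNep. MALAT1, an abundant nuclear lncRNA, was at 32105, 4339, 7706 and 58932 in Control and 6290.5, 3656, 4516 and 12211 in DZNep. Control replicates 1 and 4 were the highest of the 8, the groups overlapped, and MALAT1 was called lower only with the replicate block, which made 13 of the list lower (-1.98 ± 0.73 and edgeR adjusted p = 0.053 without it).

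A list of RNA decay genes held the RNA exosome, its cofactors and others, among them XRN1, DCP2 and UPF1, so it is not limited to decay in the nucleus. Of 28 tested, RBM7, a subunit of the nuclear exosome targeting complex, was higher (log2 fold change 1.09 ± 0.24, edgeR adjusted p = 0.00482) and ZC3H3 was lower (-1.04 ± 0.30, adjusted p = 0.0173). The ZC3H3 call was lost with the replicate block. Of 30 genes of 3′ end processing and the Integrator complex, CLP1, a pre-mRNA cleavage factor, was higher (log2 fold change 1.25 ± 0.16, adjusted p = 0.000239) and INTS8, an Integrator subunit, was lower (-1.10 ± 0.14, adjusted p = 0.000213). The 1 higher and 1 lower gene of each list stand beside 10.6% and 13.5% of all genes tested. The medians of the 2 lists were -0.16 and 0.00, beside -0.03 over all genes tested.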

How the data were processed

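RNAseq was measured in 4 Control and 4 DZNep libraries. Reads (paired, 150 bp) were trimmed with Trimmomatic 0.36, mapped to GRCh38 with STAR 2.5.2b and counted on exons with featureCounts (Subread 1.5.2). The authors deposited raw counts for 57500 genes. They also deposited normalised counts, a signal made by dividing counts by a size factor for each library, for the 19118 genes with more than 80 counts in all. The annotation release, library type and strand setting are not given in the sources used here. Unique reads alone were counted, so near-identical copies lose reads. Library totals were 25043058 to 44902779, replicates differed by more than sampling noise (chi-square per degree of freedom at least 27.1), and intervals were not drawn from counts.

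GENCODE release 44 gave symbols for 56410 of 57500 identifiers, and coordinates from it may differ from the counting annotation. RefSeq promoters were matched by Ensembl identifier, or by symbol where that gave no match. Tests used R 4.3.3, edgeR 4.0.16 (quasi-likelihood, TMM, filterByExpr, 19171 genes, Benjamini-Hochberg over all of them), checked on simulated data, with DESeq2 1.42.0 and limma 3.58.1 (log2 of normalised count + 1) as alternatives. Log2 fold changes are from counts, and levels are normalised counts. Deviations of same-numbered libraries from their group means correlated at 0.14, 0.49, 0.43 and 0.67, and edgeR was also run with the replicate number as a block. Some libraries of unlike number correlated too: Control 1 with DZNep 4 at 0.53, Control 2 with DZNep 3 at 0.40 and Control 3 with DZNep 2 at 0.34. The other pairs of unlike number were at -0.68 to -0.02. These values do not single out the number as the pairing, so pairing by number is an assumption.

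The LINC genes and the gene lists were chosen with earlier results of these data known. Genes named are the 10 highest and the 10 lowest by log2 fold change of the called LINC genes with no overlap, the 5 highest per kb, the 5 smallest changes, the 3 on each side of a mean of 50, those called with only 1 of the block settings, neighbours of the first 20, and up to 3 called genes per direction of a list. The remaining names were picked once values were known. The values of 1 further neighbouring gene are not reported here.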

Additional observations from a re-analysis of the deposited data

Results flagged for a closer look

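In LINC02609, DZNep replicate 2 was at 94.2 normalised counts and the other 3 DZNep libraries at 137 to 145. The gap to the nearest of the others was 0.839 of the group's range, over Dixon's 95% critical value for 4 libraries. Of 68 groups of libraries examined, all of LINC genes named by the rules given above, this was the 1 past that value. Chance flags about 1 in 20 groups. All 4 DZNep libraries remained below every Control library, the lowest of which was at 452.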

How the results depend on the processing

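Under DESeq2, other size factors, library sizes alone, limma, other filters and the replicate block, the LINC genes numbered 15 to 19 higher and 27 to 31 lower (18 and 31 with the replicate block), and with 1 library left out 16 to 20 higher and 26 to 33 lower. The block changed no other call of a named LINC gene than those of LINC00632, LINC01116 and LINC01572. Of values under the alternatives of the LINC genes named by the rules given above, 482 kept their call, 22 lost it and 3 gained one. Of those called, 0 changed direction. LINC genes picked once values were known are not in this tally, and the calls they lost with 1 library left out are given with them. The 5 genes with the smallest changes, none of them called, changed sign with 1 library left out. The choice of LINC genes moved the counts more. A mean of at least 100 gave 11 higher and 20 lower with a median log2 fold change of 0.0573, a mean of at least 25 gave 52 lower, and a Control mean of at least 50 gave 8 higher with a median of -0.39. Each of these sets has its own size, so the counts cannot be set against the 14.4% and 28% of the 118 as shares. Without a fold change threshold the neighbours were 28 higher and 16 lower, the listed lncRNAs 20 lower, the RNA decay genes 4 higher and 4 lower and the 3′ end genes 5 higher and 5 lower. At that setting 19.1% of all genes tested were higher and 21.8% lower. With the fold change threshold, neighbours within 50 kb, which stood in 38 tested pairs, were 2 higher and 4 lower. Among all genes tested 10.6% were higher and 13.5% lower by that rule. At least 10 counts in every library left 1 listed lncRNA higher. The RNA decay gene that was lower, ZC3H3, was lost with library sizes alone, limma, no filter and the replicate block (0 lower each). With 1 library left out the RNA decay genes were 0 to 1 higher (0 without Control replicate 4 or DZNep replicate 2) and 0 to 1 lower (0 without Control replicate 1 or 4 or DZNep replicate 2 or 3), and the 3′ end genes 1 to 3 lower (2 without Control replicate 2 or 3, 3 without DZNep replicate 4). For the counts without a fold change threshold, the wider or narrower sets and the smaller fits the construction gives the change, and for the others the cause was not tested. Depth limits the lowest groups, such as the 4.32 to 14.5 normalised counts of LINC03011 in DZNep.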

Other observations

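LINC genes with a mean under 50 numbered 175, of which 165 were tested. Of these 29 were higher (17.6%) and 37 lower (22.4%) by edgeR, beside 10.6% and 13.5% of all genes tested. LINC01647 was at 0 in every Control library and at 35.4, 21.7, 22.5 and 22.5 normalised counts in the DZNep libraries. LINC02816 was at 6.17, 0.893, 6.27 and 3.22 in Control and 63.5, 81.3, 63.0 and 74.2 in DZNep (edgeR log2 fold change 4.07 ± 0.44, adjusted p = 8.35e-05). LINC01394 was at 43.2, 17.9, 26.9 and 26.9 in Control and at 0.907, 0, 0.864 and 0 in DZNep. LINC01414 was at 74.0, 52.7, 76.1 and 44.05 in Control and 9.98, 4.83, 12.1 and 5.62 in DZNep (-2.92 ± 0.38, adjusted p = 0.00023). In these 4 genes, which were chosen after their values were seen, the groups did not overlap. LINC01647 and LINC02816 were higher in every DZNep library and the other two lower.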
